A study of Rattus norvegicus with 287 samples.

Results

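The repressors of the mammalian circadian clock were followed by RNA sequencing in 8 tissues of rats whose porta hepatis was treated with peripheral focused ultrasound (pFUS) or with a sham procedure. They are the period genes Per1, Per2 and Per3, the cryptochromes Cry1 and Cry2, and Ciart, which encodes the repressor also called CHRONO. Each was taken by its symbol from a table of 32623 genes, and each symbol named 1 gene, so 6 of 32623 genes are described. In the clock, the activators CLOCK, NPAS2 and ARNTL (BMAL1) bind E-box sequences and switch on the genes of their own repressors. The PER and CRY proteins then enter the nucleus together and shut the activators off, CIART also binds ARNTL and represses it, and the cycle starts again as the repressors decay. Transcripts of the repressors therefore rise and fall with the hour in liver, muscle, kidney and other organs, and meals and glucocorticoids also set them, the latter mostly through Per1.

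Obese Zucker Diabetic Fatty (ZDF) rats lack working leptin receptors and become diabetic. At 7 weeks they were 5 controls (rats 1 to 5) and 5 with pFUS (rats 6 to 10), all male, with 4 and 4 libraries in adipose tissue. Lean Zucker males at 7 weeks were 5 controls (rats 11 to 15) and 5 with pFUS (rats 16 to 20), with 4 each in adipose tissue and muscle, 3 with pFUS in intestine, and no kidney or pancreas. Shorter courses in obese ZDF males, in liver, muscle and adipose tissue, were a 3-day control, 3 days of pFUS in the morning (AM only) at x1 or x10, and 4 weeks of pFUS as AM and PM x1, AM and PM x10 or AM only x10, with 4 rats in each group and no 4-week control. The labels do not spell out x1 and x10. Rats labelled DIO-stz at 7 weeks were 2 female and 2 male controls and 1 female with 3 or 4 males with pFUS (in adipose tissue 3 males). DIO diet resistant rats were 2 females, both with pFUS. All groups were anaesthetised with isoflurane. Replicates are different rats. Ages and the hour at which tissue was taken are not given in the sources used here. A difference between groups in that hour or in meals therefore cannot be told apart from an effect of pFUS or of strain.

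Promoter windows, 250 bases before to 50 after the annotated start, were found for 5 of the 6 genes in the RefSeq sequences of the GRCr8 build. Those of Ciart (chr2:186112197-186112496), Per2 (chr9:99496944-99497243) and Per3 (chr5:166777751-166778050), all on the minus strand, are shown because these 3 genes were called most often in the tests. Capitals mark matches to the E-box CACGTG, its variant CACGTT and the D-box TTANGTAA.
Ciart: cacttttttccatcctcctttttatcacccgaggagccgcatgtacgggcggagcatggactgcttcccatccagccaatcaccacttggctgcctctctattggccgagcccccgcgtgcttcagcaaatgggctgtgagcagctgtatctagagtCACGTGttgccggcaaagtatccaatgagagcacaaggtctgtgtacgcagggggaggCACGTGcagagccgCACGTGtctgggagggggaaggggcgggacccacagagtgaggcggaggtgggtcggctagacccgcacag
Per2: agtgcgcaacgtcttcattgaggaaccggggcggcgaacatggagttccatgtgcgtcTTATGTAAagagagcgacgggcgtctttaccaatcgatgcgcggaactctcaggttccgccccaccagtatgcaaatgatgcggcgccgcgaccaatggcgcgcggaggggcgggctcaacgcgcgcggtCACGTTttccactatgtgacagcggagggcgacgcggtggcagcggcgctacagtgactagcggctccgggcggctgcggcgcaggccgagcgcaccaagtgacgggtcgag
Per3: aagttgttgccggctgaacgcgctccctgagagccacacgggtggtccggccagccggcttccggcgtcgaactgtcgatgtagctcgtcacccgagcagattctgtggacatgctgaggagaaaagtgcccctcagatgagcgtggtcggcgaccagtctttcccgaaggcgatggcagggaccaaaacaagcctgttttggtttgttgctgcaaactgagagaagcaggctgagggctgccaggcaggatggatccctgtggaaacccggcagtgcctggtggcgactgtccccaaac
The Ciart window holds 3 copies of the E-box, whose first bases lie 93, 35 and 21 bases before the start, where 6.42% of 33469 windows of the same length hold at least 1. The Per2 window holds no such E-box, but the variant 62 bases and a D-box 192 bases before the start, found in 4.83% and 2.24% of windows. D-boxes are bound by the output factors DBP, TEF and HLF. Both strands were searched. Neither motif nor the ROR element TAGGTCA (2.63% of windows) matched in the Per3 window, and the Cry2 window held the E-box variant once, 212 bases before the start. The heat shock pair GAANNTTC (8.59% of windows) and the full cAMP response element TGACGTCA (1.83%) matched in none of the 5, and the shorter TGACG within it (21.2%) matched 1 time each for Per2 and Per3. The annotated starts used for the Per1, Ciart, Per3 and Per2 windows lie 5374, 1532, 443 and 76 bases inside the annotated span of their genes, so that other starts exist upstream of them.

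Library totals ran from 2380545 to 43088790 counts, with a median of 12849617. A level is a CPM, the count scaled to a library total of 1000000. Other kits were used for pancreas and adipose tissue, and CPM has no correction for length, so levels are compared within a gene. In an order of tissues, the place of pancreas and adipose tissue cannot be told apart from their kit. Cell composition was not measured, and in bulk tissue fewer cells of a type and less RNA per cell cannot be told apart. Over the series 26 libraries held markers of another tissue or region or stood apart from their group. They include 11 of 48 adipose libraries, each with high skeletal muscle, kidney or brown fat markers, 9 of 29 intestine libraries and the liver library of lean control rat 15. Hepatocyte markers, 6 genes summed, were at 113000 to 210000 CPM in the obese 7-week livers. The brain libraries are from hypothalamus according to the design text, and in 13 of 31 its peptide genes Oxt, Avp, Hcrt and Pmch were all under 2 CPM. Obese control rats 2 and 3 stood apart from all others in Hspa1b, which encodes an inducible heat shock protein: it was at 444 and 1239 CPM in their livers, against at most 7.91 in the other obese controls and 10.5 in all other livers. In their brains, intestines, kidneys, muscles and pancreases it was at 238 to 2488 CPM, against at most 72.9 in other libraries of those tissues. Calls of the members by edgeR or limma from all libraries that rest on the obese 7-week controls are therefore given with and without these rats. Rat 3 has no adipose library. Calls by DESeq2 and by fits without libraries in doubt were not repeated without these rats.

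Among the obese 7-week controls each repressor had its own order of tissues, and blood was the lowest for all but Ciart. Cry2 had a median of 169.6 CPM in brain, above and without overlap with 67.3 in adipose tissue, 46.1 in kidney, 32.7 in liver and 31.1 in muscle, neighbours whose ranges overlapped. Lower still, each apart from its neighbour, were 14.1 in intestine, 6.58 in pancreas and 1.93 in blood. Cry1 was highest in intestine at 24.2 CPM, apart from 12.9 in brain and the overlapping series down to 3.16 in pancreas, with blood apart at 0.838.

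Per3 was highest in adipose tissue, at a median of 91.7 CPM, apart from 54.4 in brain, and then overlapped from tissue to tissue through 21.2 in intestine, 14.2 in kidney, 12.5 in muscle and 6.02 in liver to 1.89 in pancreas, with blood apart at 0.232. Adipose tissue had another kit than brain, and the adipose libraries of rats 4 and 5 held the brown fat marker Ucp1. Per1 ran from 76.5 CPM in brain, 57.3 in kidney and 51.2 in adipose tissue to 7.34 in liver, each overlapping its neighbour, and was apart and lowest in blood at 1.52. Per2 had its highest median in intestine (99.9 CPM), followed by brain (55.6), kidney (54.5) and adipose tissue (50.4), and ended at 5.98 in pancreas and, apart from it, 0.604 in blood. Ciart was highest in brain at 13.4 CPM, apart from 3.16 in intestine, and the other tissues lay at 1.49 or under. Ciart had no read in 8 of 20 pancreas, 8 of 55 liver, 6 of 31 blood and 2 of 48 adipose libraries of the series, and failed the filter on low counts in blood, pancreas and DIO-stz liver. The other 5 genes passed it in every fit of a single tissue.

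**Figure D1:**
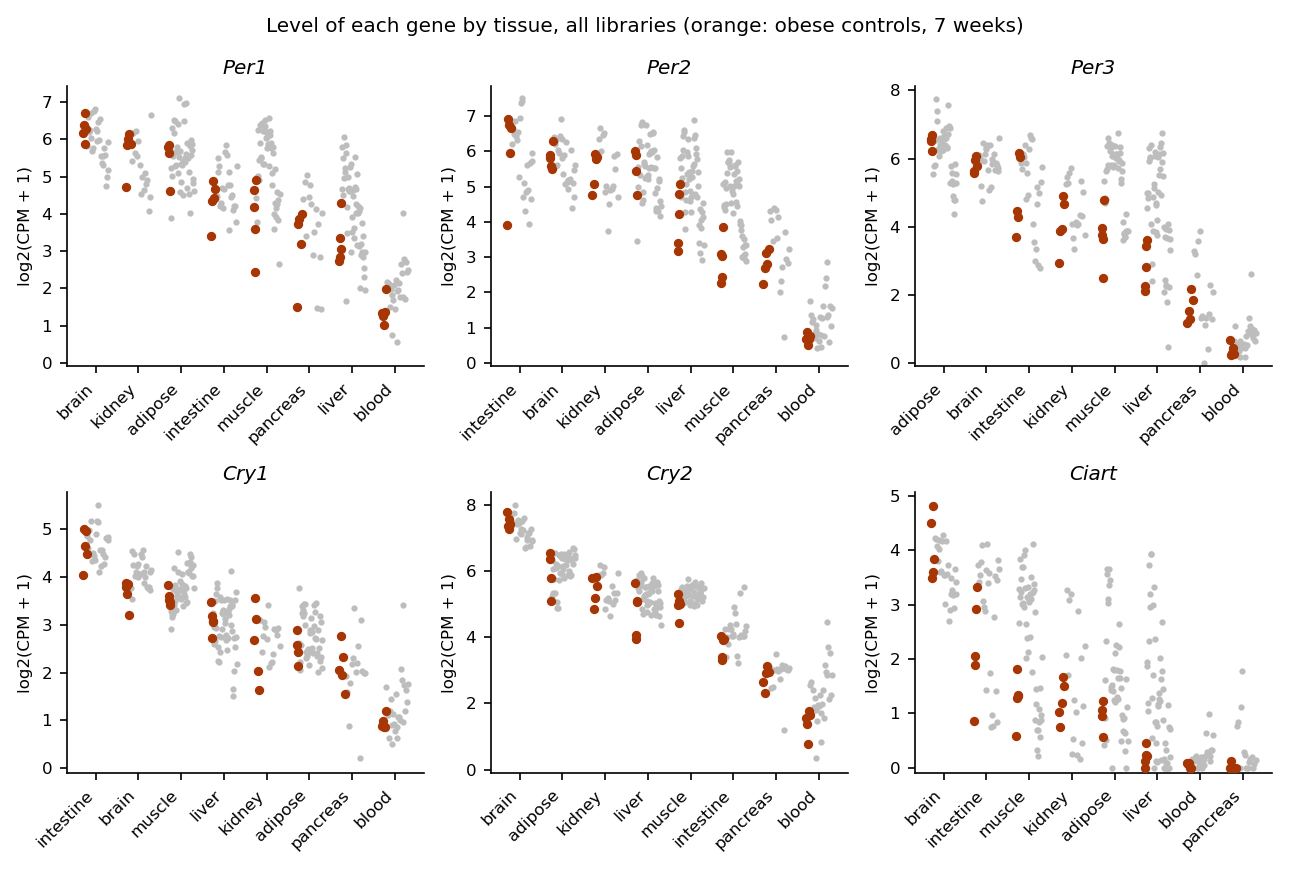
Level of each repressor as log2(CPM + 1) in every library by tissue, with the obese 7-week controls in orange. Cry2 and Ciart stand highest in brain, Cry1 in intestine and Per3 in adipose tissue among the obese controls. Pancreas and adipose libraries came from other kits.

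The first comparison sets the repressors of obese rats with 7 weeks of pFUS against those of their controls. In liver, Per3 and Ciart rose with pFUS (2 of 6 members, 0 fell), where 0.302% of all genes tested in either direction passed an adjusted p of 0.05. In control livers Per3 was at 3.36, 3.82, 6.02, 9.77 and 11.1 CPM and in pFUS livers at 22.6, 27.8, 31.0, 31.0 and 60.1. The lowest pFUS liver was above the highest control, and the fitted difference between the groups was 4.76-fold (log2 fold change 2.25 ± 0.47 (SE), adjusted p = 0.0386, edgeR). Ciart was at 0, 0.092, 0.162, 0.171 and 0.37 CPM in controls, which is 0 to 12 reads a library, and at 1.06, 1.28, 2.64, 2.85 and 4.00 with pFUS, or 38 to 77 reads. These groups did not overlap either (log2 fold change 3.73 ± 0.69 (SE), adjusted p = 0.0155, edgeR).

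Per1, the period gene most directly driven by glucocorticoids and cAMP, was at 5.62, 6.10, 7.34, 9.26 and 18.5 CPM in control livers and 21.8, 24.5, 30.4, 44.3 and 54.5 with pFUS. The groups did not overlap, but edgeR's test did not pass (log2 fold change 1.82 ± 0.45 (SE), adjusted p = 0.0976), whereas DESeq2 called it (adjusted p = 0.00619). Per2 was at 8.04, 9.57, 17.6, 26.8 and 33.0 CPM against 25.1, 36.8, 45.3, 55.0 and 57.3 with pFUS, with overlapping groups (log2 fold change 1.13 ± 0.37 (SE), adjusted p = 0.349). The cryptochromes, the strongest repressors of the complex, did not pass: Cry2 was at 14.5, 15.8, 32.7, 33.3 and 48.5 and 41.2, 44.0, 46.8, 52.0 and 58.2 CPM (log2 fold change 0.66 ± 0.25 (SE), adjusted p = 0.471). Cry1 was at 5.63, 7.29, 7.45, 8.06 and 10.2 CPM in controls and 5.04, 5.35, 6.73, 8.50 and 10.4 with pFUS, and it alone of the 6 had a negative value (log2 fold change -0.20 ± 0.27 (SE), adjusted p = 1).

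Whether the 2 liver calls passed the threshold depended on which rats were in the fit. Without control rats 2 and 3 neither gene passed (Per3 2.01, adjusted p = 0.426; Ciart 3.88, adjusted p = 0.0819), and 0 of 6 members were called. Per3 also missed the threshold when any of 9 of the 10 rats was left out, with adjusted p from 0.0507 to 0.159 (without rats 1, 2, 3, 4, 6, 7, 8, 9 and 10 in turn), and Ciart without pFUS rat 10 (adjusted p = 0.067). Without control rat 5, whose Per1 was the highest of the controls at 18.5 CPM, Per1 passed as well (adjusted p = 0.0267) and 3 members were called. The summed level of 5 macrophage markers was 124 to 180 CPM in control and 60.7 to 146 in pFUS livers, and its part in these differences was not tested.

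**Figure D2:**
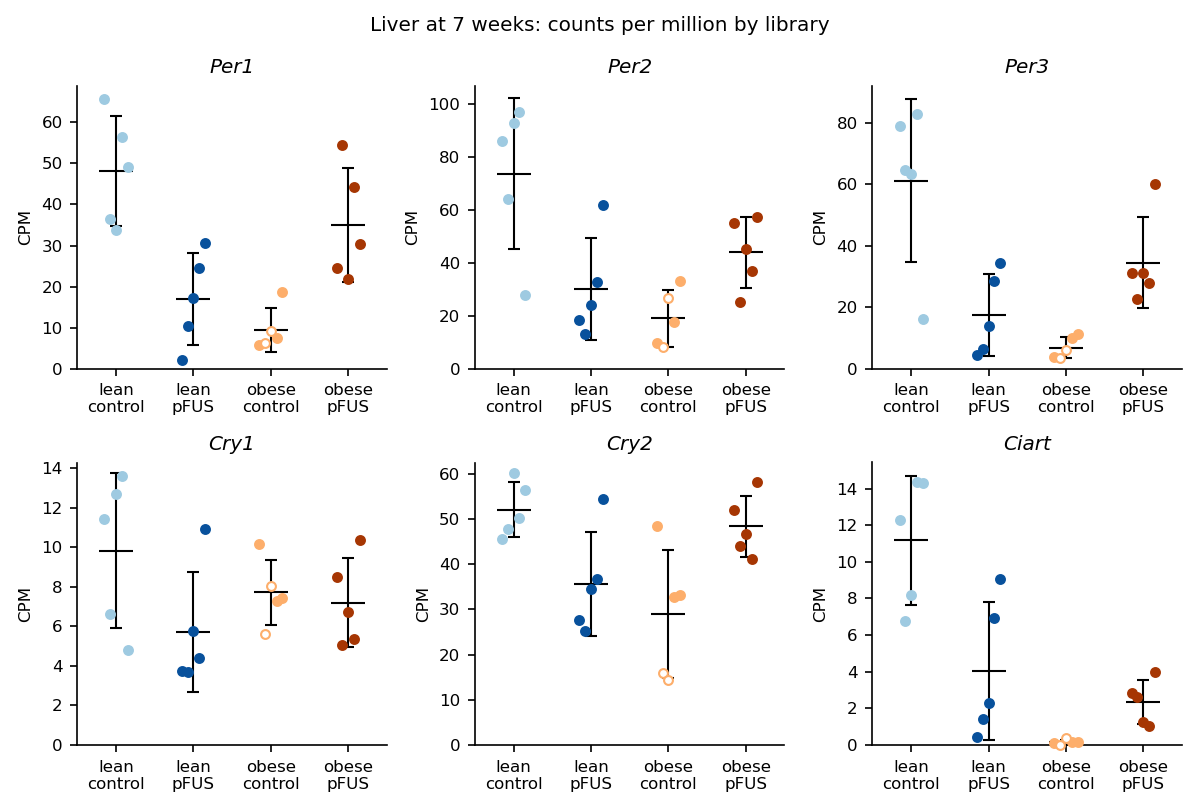
CPM of the 6 repressors in liver at 7 weeks for lean control, lean pFUS, obese control and obese pFUS rats, with a point for each library and a bar for the mean ± SD; hollow points are obese control rats 2 and 3. In obese rats all 5 pFUS livers lie above all 5 controls for Per1, Per3 and Ciart, and in lean rats the pFUS livers lie lower, without overlap for Per1.

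In muscle, Per2 and Ciart rose with pFUS in obese rats (2 of 6 members, 0 fell), against 0.103% of all genes called. Ciart was at 0.498, 1.42, 1.49, 1.54 and 2.505 CPM in controls and 5.33, 7.79, 8.45, 8.79 and 13.3 with pFUS. The lowest pFUS muscle was above the highest control (log2 fold change 2.40 ± 0.34 (SE), adjusted p = 0.00564, edgeR). Per2 was at 3.82, 4.37, 7.23, 7.58 and 13.4 CPM in controls and 19.4, 20.3, 21.3, 32.9 and 34.3 with pFUS, again without overlap (log2 fold change 1.72 ± 0.28 (SE), adjusted p = 0.0151). Per3 did not pass, at 4.61, 11.5, 12.5, 14.5 and 26.4 against 25.1, 27.0, 27.5, 39.3 and 48.9 CPM with an overlap (log2 fold change 1.20 ± 0.26 (SE), adjusted p = 0.112, edgeR), though DESeq2 called it (adjusted p = 0.006).

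Cry1 in muscle lay the other way, at 9.70, 10.1, 10.4, 11.1 and 13.2 CPM in controls and 6.57, 8.03, 8.33, 8.37 and 8.79 with pFUS, with every pFUS muscle under every control and no call (log2 fold change -0.57 ± 0.18 (SE), adjusted p = 0.642). Cry2 was at 20.5 to 38.5 and 38.8 to 45.01 CPM, with pFUS above control throughout and a small fold change (log2 fold change 0.30 ± 0.15 (SE), adjusted p = 0.865). Per1 overlapped, at 4.37 to 29.0 and 12.7 to 74.5 CPM (log2 fold change 0.94 ± 0.45 (SE), adjusted p = 0.865). Without control rats 2 and 3 neither call in muscle held (Per2 1.77, adjusted p = 0.188; Ciart 2.75, adjusted p = 0.0521), 0 members were called, and of all 12746 genes tested none passed for pFUS in obese muscle (1189 at an unadjusted p under 0.05). With only the 2 obese groups in the fit, 0 were called as well (Per2 adjusted p = 0.122, Ciart 0.0536). Per2 also lost its call without rats 1, 2, 6 and 10 in turn (adjusted p 0.0507 to 0.0674), and without control rat 5 Per3 passed (adjusted p = 0.0134).

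In pancreas, Per2 and Per3 rose (2 of 5 members tested, 0 fell), against 0.0718% of all genes. Per3 was at 1.26, 1.47, 1.89, 2.57 and 3.50 CPM in controls and 5.04, 8.18, 8.85, 11.0 and 13.8 with pFUS. No control reached the lowest pFUS library (log2 fold change 2.24 ± 0.25 (SE), adjusted p = 0.000883, edgeR). Per2 was at 3.71, 5.49, 5.98, 7.66 and 8.46 and 10.1, 15.5, 18.9, 19.3 and 20.1 CPM, also without overlap (log2 fold change 1.53 ± 0.18 (SE), adjusted p = 0.000883). Both calls held when any one rat was left out, and without control rats 2 and 3 (Per2 1.55, adjusted p = 0.0273; Per3 2.03, adjusted p = 0.0273). Ciart, which did not pass the filter, was at 0, 0, 0, 0 and 0.09 CPM, a single read in all, and 0, 0.708, 0.783, 1.16 and 2.41 with pFUS. Per1 was at 1.81 to 15.0 and 9.66 to 31.8 CPM (log2 fold change 1.27 ± 0.47 (SE), adjusted p = 0.566), Cry1 at 1.93 to 5.85 and 0.84 to 3.55 (log2 fold change -0.48 ± 0.29 (SE), adjusted p = 0.75). The summed acinar markers, 7 genes of the digestive enzyme cells, were 286000 to 358000 CPM in controls and 178000 to 322000 with pFUS; their part in these differences was not tested.

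In kidney no member passed (0 of 6 in edgeR, with 0.0973% of all genes called), although 4 had an unadjusted p under 0.05 and DESeq2 called 2. Of all 13359 genes tested there, 962 had an unadjusted p under 0.05. Ciart was at 0.683, 1.04, 1.27, 1.83 and 2.16 CPM in controls and 2.24, 3.21, 7.53, 8.17 and 8.65 with pFUS (log2 fold change 2.14 ± 0.48 (SE), adjusted p = 0.22), and Per3 at 6.64, 13.6, 14.2, 24.5 and 29.1 and 37.0, 38.2, 43.1, 46.6 and 51.8 (log2 fold change 1.34 ± 0.36 (SE), adjusted p = 0.368). In both the groups were apart, as they were for Per2 (log2 fold change 0.91) and Cry2 (0.57). Of all genes tested in kidney, 0.314% had every pFUS library above every control and 0.734% every one below. No member passed in kidney without control rats 2 and 3 either (Ciart 1.80, adjusted p = 0.604). DESeq2 called Ciart (adjusted p = 0.0026) and Per3 (0.0325). In intestine too no member passed in edgeR (0 of 6, with 0.0612% of all genes), 5 had an unadjusted p under 0.05 and DESeq2 called 2, Per1 and Ciart. Of all 14709 genes tested in intestine, 2684 had an unadjusted p under 0.05. There Ciart was at 0.805, 2.69, 3.16, 6.59 and 9.02 CPM in controls and 9.61, 10.7, 12.2, 12.8 and 16.2 with pFUS, without overlap (log2 fold change 1.71 ± 0.50 (SE), adjusted p = 0.113), and the other 5 had log2 fold changes from 0.49 to 1.04 with overlapping groups. Without control rats 2 and 3 edgeR called 0 here too, with 3 at an unadjusted p under 0.05 (Ciart 1.41, adjusted p = 0.294). Control rat 1 held the ileal marker Fabp6 and pFUS rat 7 the acinar marker Prss1, and without these libraries 0 members were called.

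In adipose tissue, blood and brain no member passed in edgeR (0 of 6, 0 of 5 and 0 of 6), and the share of all genes called was 0% in adipose tissue, 0% in blood and 0% in brain. In these tissues 0, 1 and 0 members had an unadjusted p under 0.05, and DESeq2 called 0 in each. The count in edgeR was also 0 in each without control rats 2 and 3, with 0 at an unadjusted p under 0.05. In brain Per2 was at 44.0, 47.1, 55.6, 58.1 and 77.8 CPM in controls and 47.3, 48.4, 72.7, 78.4 and 83.9 with pFUS, which overlap, and all 6 log2 fold changes lay between -0.05 and 0.41. In blood the 5 tested ran from -0.34 for Cry1 to 0.47 for Cry2. In adipose tissue the signs of the period genes were the reverse of liver (Per1 -0.10, Per2 -0.64, Per3 -0.46), and 4 of the 8 obese libraries held muscle or brown fat markers. Without such libraries 2 controls (rats 1 and 2) and 2 pFUS rats remain, and Per1, Per2 and Per3 were all called lower with pFUS (adjusted p = 0.0267, 0.00081 and 0.00352). These calls were not repeated without rat 2. The share of all genes called in that smaller fit is not given here, so the count has no background.

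**Figure D3:**
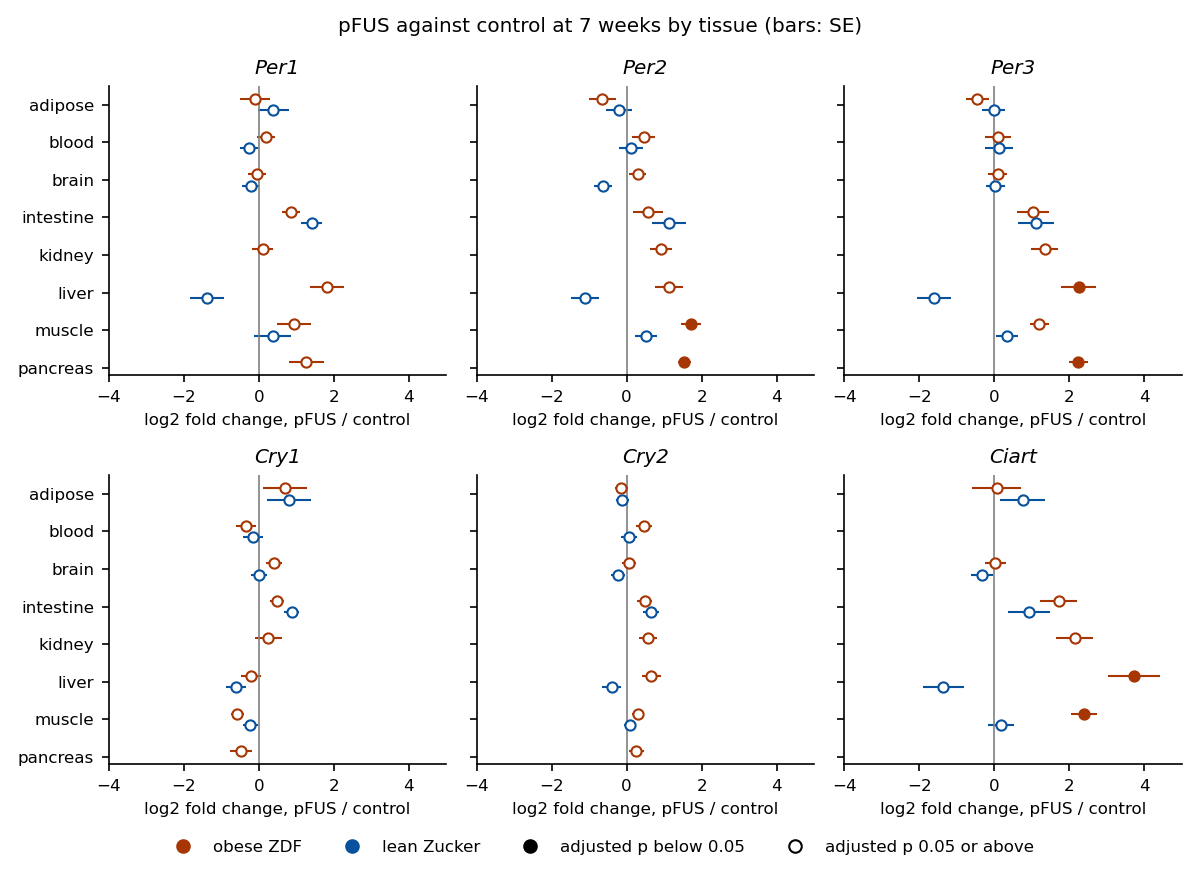
log2 fold change of each repressor with pFUS against control at 7 weeks by tissue, in obese ZDF and lean Zucker rats; bars are ± SE from edgeR and filled points have an adjusted p under 0.05. Filled points are seen only in obese liver (Per3, Ciart), muscle (Per2, Ciart) and pancreas (Per2, Per3), and in liver the obese and lean points of Per1, Per2, Per3, Cry2 and Ciart lie on opposite sides of 0.

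To use each rat once, log2 CPM was averaged over the 7 tissues that all obese 7-week rats have. Per3 rose with pFUS (1 of 5 members tested, 0 fell; 0.393% of all genes were called). Its rat means were 2.53, 2.64, 2.83, 3.32 and 3.47 in controls and 4.08, 4.15, 4.18, 4.23 and 4.51 with pFUS, 2 sets well apart (log2 fold change 1.27 ± 0.17 (SE), adjusted p = 0.00579, limma). For Per2 the means were 3.02, 3.64, 3.75, 4.07 and 4.33 in controls and 4.62, 4.66, 4.71, 4.83 and 5.03 with pFUS, also without overlap, and the test did not pass (log2 fold change 1.01 ± 0.20 (SE), adjusted p = 0.0732). Per1 (0.76, adjusted p = 0.229) and Cry2 (0.43, adjusted p = 0.205) had positive and Cry1 (-0.05, adjusted p = 0.903) a value near 0. Without control rats 2 and 3 Per3 just missed the threshold (1.11, adjusted p = 0.0526). The level of ENSRNOG00000030106 went from high to low between tissues of pFUS rats 8 and 9 and control rat 5, and whether the tissues under these numbers come from 1 rat each was not tested. Without these 3, Per3 had a log2 fold change of 1.45 (adjusted p = 0.0102). Without rat 1 or rat 5 Per2 passed as well (adjusted p = 0.0221 and 0.015).

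**Figure D4:**
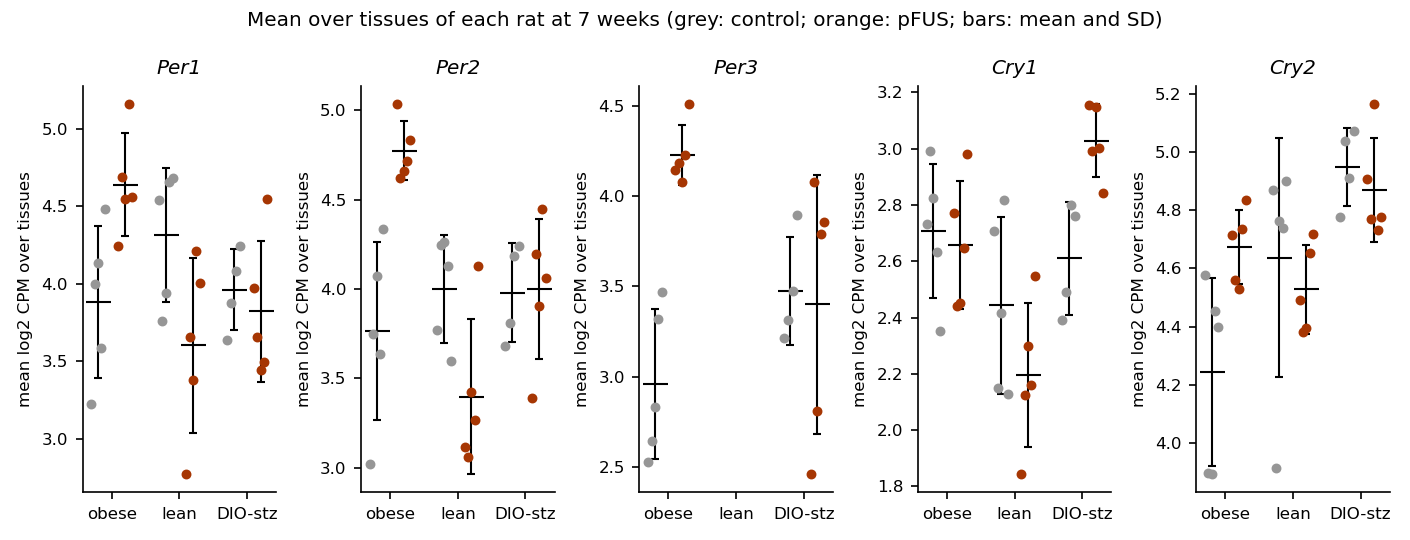
Mean log2 CPM over tissues of each rat for 5 repressors, control and pFUS, in obese ZDF (7 tissues), lean Zucker (3 tissues) and DIO-stz rats. Per3 failed the filter on low counts in the lean set and has no lean rat mean. In obese rats the Per2 and Per3 means of control and pFUS rats do not overlap, whereas the groups overlap for Per1 and Per2 in lean rats and for the period genes in DIO-stz rats.

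In lean Zucker rats no member passed in edgeR in any tissue. In liver edgeR called 0 of 6 (0.0556% of all genes), 5 had an unadjusted p under 0.05 and DESeq2 called 3, Per1, Per2 and Per3 (adjusted p = 0.0325, 0.0438 and 0.013). Of all 12585 genes tested in liver, 2924 had an unadjusted p under 0.05. All 6 log2 fold changes were negative there. Per1 was at 33.7, 36.3, 49.1, 56.4 and 65.7 CPM in lean controls and 2.18, 10.3, 17.2, 24.5 and 30.6 with pFUS. Every pFUS liver was under every control (log2 fold change -1.38 ± 0.44 (SE), adjusted p = 0.0918). Per3 was at 16.1, 63.3, 64.5, 78.9 and 82.8 and 4.28, 6.46, 13.7, 28.5 and 34.2 CPM, where the lowest control, rat 15, lay among the pFUS livers (log2 fold change -1.61 ± 0.46 (SE), adjusted p = 0.0724). Ciart was at 6.78, 8.17, 12.3, 14.3 and 14.3 and 0.451, 1.44, 2.28, 6.94 and 9.07 CPM, with an overlap (log2 fold change -1.36 ± 0.55 (SE), adjusted p = 0.151). Within the pFUS group the 5 rats spread widely, and rats 19 and 20 were the highest in all 3 genes.

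Control rat 15 is the lean liver that stood apart from its group. Without it Per1 (adjusted p = 0.0405), Per2 (0.0112), Per3 (0.00394) and Cry1 (0.0408) were called lower with pFUS, 4 of 6 members. Without pFUS rat 20 Per2 and Per3 were called (adjusted p = 0.039 and 0.0363), and without rat 19 Per3 alone (0.0491). The shares of all genes called in these fits are not given here, so the counts have no background. In intestine, with 3 pFUS libraries, edgeR called 0 of 6 (0.0068% of all genes), 5 had an unadjusted p under 0.05 and DESeq2 called 1, Per1. Of all 14709 genes tested in intestine, 1498 had an unadjusted p under 0.05. Signs were positive for all 6, and all but Ciart had groups that did not overlap. The share of all genes without overlap is not given for lean rats, so this count has no background. Per1 was at 17.0, 17.6, 18.6, 24.5 and 25.1 CPM in controls and 47.2, 49.5 and 56.8 with pFUS (log2 fold change 1.41 ± 0.27 (SE), adjusted p = 0.27). The ileal marker Fabp6 was at 8719.5 and 14139.95 CPM in control rats 11 and 14, at 1.21 to 4.16 in the other 3 controls and at 0.64 to 1.15 with pFUS. Its part in these differences was not tested, and without libraries in doubt edgeR called 0 members. Without control rat 15 Per1 and Cry1 passed there (adjusted p = 0.0232 and 0.0234). In adipose tissue, blood, brain and muscle edgeR called 0 members (0%, 0%, 0% and 0% of all genes), of which 0, 0, 1 and 0 had an unadjusted p under 0.05, and DESeq2 called 0. All 4 lean pFUS adipose libraries were in doubt: those of rats 17, 18 and 19 held the skeletal muscle marker Ckm at 17282 to 18785 CPM with the adipocyte marker Adipoq at 0.16 to 7.57, and that of rat 16 the kidney marker Umod with Adipoq at 775. Of the 4 lean controls 2 were in doubt too, so the effect in adipose tissue could not be fitted without such libraries. Over the mean of blood, brain and liver per rat, limma called 0 of 4 (0% of all genes), with 2 at an unadjusted p under 0.05 (Per1 -0.71, Per2 -0.60). Per3 and Ciart were not tested in these means.

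The opposite signs in obese and lean livers were tested as the difference between both pFUS effects. Per1, Per3 and Ciart passed (3 of 6 members, all with the larger effect in obese rats), against 0.358% of all genes. The difference in log2 fold change was 3.20 ± 0.63 (SE) for Per1 (adjusted p = 0.0206), 3.86 ± 0.65 for Per3 (adjusted p = 0.00776) and 5.09 ± 0.88 for Ciart (adjusted p = 0.00933), by edgeR. Per2 did not pass in edgeR at 2.24 ± 0.53 (adjusted p = 0.0742), though it did in DESeq2 (adjusted p = 0.00514), nor did Cry2 at 1.05 ± 0.35 or Cry1 at 0.40 ± 0.38. Without obese control rats 2 and 3 Per3 and Ciart still passed (3.63, adjusted p = 0.0465; 5.24, adjusted p = 0.0258), and Per1 did not (3.08, adjusted p = 0.111). Per3 and Ciart passed with any 1 of the 20 rats left out. Per1 missed without rats 1, 2, 11, 17 and 18 in turn (adjusted p 0.05 to 0.0551), and Per2 passed without rats 5, 7, 15 and 20 in turn (0.00599 to 0.0471). In the other 5 tissues edgeR called no difference, with 0% of all genes called in adipose tissue, 0% in blood, 0% in brain, 0.0068% in intestine and 0% in muscle. In these, 0, 0, 1, 0 and 3 members had an unadjusted p under 0.05 and DESeq2 called 0, and without obese control rats 2 and 3 edgeR called 0 as well. The adipose difference rests on the lean pFUS libraries with muscle or kidney markers. In muscle the difference for Ciart was 2.23 ± 0.48 (SE), adjusted p = 0.827.

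The obese and lean controls show where both effects started from, and the comparison shares its groups with both pFUS comparisons. In liver 5 of 6 members were lower in obese than in lean controls (0 higher), against 13% of all genes. Ciart was at most 0.37 CPM in obese and at least 6.78 in lean control livers (log2 fold change -6.12 ± 0.71 (SE), adjusted p = 8.76e-06, edgeR). Per3 was at most 11.1 in obese and at least 16.1 in lean control livers (log2 fold change -3.11 ± 0.48 (SE), adjusted p = 0.00021), and Per1 at most 18.5 and at least 33.7 (log2 fold change -2.38 ± 0.46 (SE), adjusted p = 0.00149). Per2 was at 27.8, 64.2, 86.1, 92.9 and 96.8 CPM in lean controls, which overlaps the obese range of 8.04 to 33.0 (log2 fold change -1.92 ± 0.38 (SE), adjusted p = 0.00197). Cry2 was at 45.5, 47.9, 50.2, 56.5 and 60.2 CPM in lean controls against 14.5 to 48.5 (log2 fold change -0.88 ± 0.25 (SE), adjusted p = 0.0239), and its call was lost without obese control rat 2 or 3 (adjusted p = 0.0711 and 0.0567), without both (-0.52, adjusted p = 0.19; the other 4 calls held) and with only the 2 groups in the fit (0.101). Cry1 did not pass (log2 fold change -0.32 ± 0.27 (SE), adjusted p = 0.448).

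In muscle 4 of 6 were lower in obese controls and 0 higher, all without overlap, where 51.9% of all genes passed as well. The share of all genes without overlap is not given for this comparison. Ciart was at 7.10, 10.1, 11.8 and 12.0 CPM in lean muscle and at most 2.505 in obese (log2 fold change -2.65 ± 0.36 (SE), adjusted p = 1.46e-05). Per2 was at 22.0, 30.2, 40.7 and 62.5 CPM in lean muscle (log2 fold change -2.34 ± 0.29 (SE), adjusted p = 6.56e-06) and Per3 at 50.9, 55.6, 82.1 and 95.7 (log2 fold change -2.28 ± 0.28 (SE), adjusted p = 5.68e-06). Per1 was at 29.1, 42.9, 58.5 and 83.2 (log2 fold change -1.59 ± 0.47 (SE), adjusted p = 0.00959). Neither cryptochrome passed (Cry1 -0.18, Cry2 -0.15), and all 4 calls held without obese control rats 2 and 3. In adipose tissue, blood, brain and intestine edgeR called 0 members, where 0.00728%, 2.78%, 0.297% and 0.0136% of all genes passed, 1, 0, 2 and 0 members had an unadjusted p under 0.05, and DESeq2 called 1, 0, 0 and 0. Without obese control rats 2 and 3 edgeR also called 0 in these 4 tissues. The call by DESeq2 was adipose Ciart, at 0.483, 0.929, 1.07 and 1.34 CPM in obese and 4.03, 7.58, 10.8 and 11.6 in lean controls (log2 fold change -3.23 ± 0.67 (SE), adjusted p = 0.355, edgeR). Of the 4 lean adipose controls 2 held kidney or skeletal muscle markers. Without such libraries Ciart, Per1, Per2 and Per3 were called lower in obese adipose tissue, with 2 rats in each group. The share of all genes called in that smaller fit is not given here either.

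After 3 days of pFUS Per3, Cry2, Per2 and Ciart each rose in at least 1 tissue of obese rats. The x1 and x10 groups were compared with the same 4 controls, so their values are given side by side. In liver, Per3 was at 3.26, 4.42, 12.1 and 14.9 CPM in controls, 29.5, 50.4, 79.1 and 86.2 with x1 and 43.7, 59.1, 70.2 and 106 with x10. Both treated groups lay above all controls (x1 log2 fold change 2.80 ± 0.49 (SE), adjusted p = 0.00696; x10 log2 fold change 2.94 ± 0.49 (SE), adjusted p = 0.00346; edgeR). With x1 it was the 1 of 6 members that rose (1.32% of all genes called) and with x10 Cry2 rose as well, 2 of 6 (2.04%). Cry2 was at 26.2, 28.1, 28.6 and 31.4 CPM in controls, 24.4, 32.2, 41.3 and 49.2 with x1 and 41.3, 45.3, 46.0 and 53.8 with x10, where only x10 was above all controls (log2 fold change 0.67 ± 0.14 (SE), adjusted p = 0.00946). Ciart was at 0, 0, 0.113 and 0.37 CPM in controls, 0 to 4 reads a library, then 0.103, 1.33, 2.08 and 3.07 with x1 and 0.831, 1.71, 2.42 and 5.43 with x10 (log2 fold change 4.33 ± 1.14 (SE), adjusted p = 0.0509). It passed with x10 without control rat 44 or pFUS rat 40 (adjusted p = 0.0496 and 0.0477), and without x1 rat 35 Cry2 passed with x1 (0.03). DESeq2 called Ciart with x10 (adjusted p = 0.0113). With only the 2 groups compared in the fit, Per3 did not pass (adjusted p = 0.151 with x1 and 0.0747 with x10).

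In muscle, Ciart rose with x1 (1 of 6 members, 0 fell; 0.0157% of all genes) and Ciart and Per2 with x10 (2 of 6, 0 fell; 0.51%). Ciart was at 0.613, 0.823, 1.25 and 1.72 CPM in controls, 2.36, 8.30, 10.3 and 16.3 with x1 and 6.32, 8.43, 8.61 and 9.46 with x10. Neither treated group overlapped the controls (x1 log2 fold change 3.03 ± 0.45 (SE), adjusted p = 0.0114; x10 log2 fold change 2.85 ± 0.45 (SE), adjusted p = 0.014). Per2 was at 12.6, 14.0, 14.3 and 15.2 CPM in controls, 21.0, 22.8, 34.5 and 42.2 with x1 and 31.2, 32.3, 36.1 and 51.3 with x10, both above all controls, with a call for x10 alone (log2 fold change 1.42 ± 0.26 (SE), adjusted p = 0.0222; x1 log2 fold change 1.08 ± 0.26 (SE), adjusted p = 0.277). Cry1 was under all controls in both, at 15.9, 16.2, 16.3 and 18.5 CPM in controls, 9.47, 11.1, 11.5 and 12.6 with x1 and 9.97, 10.2, 12.6 and 13.1 with x10, and was not called (adjusted p = 0.505 and 0.139). Without the muscle library of 4-week rat 22, which stood apart and shares only the fit, Cry1 was called lower with x10 (log2 fold change -0.57, adjusted p = 0.0398, edgeR). DESeq2 called Per2 with x1 and Per3 with x10 as well (adjusted p = 0.0305 and 0.0496). The call of Ciart with x1 was lost without rats 33, 36, 41, 43 and 44 in turn (adjusted p 0.051 to 0.098) and with only the 2 groups in the fit (0.27). With x10, Ciart lost it without rat 43 (0.0694) and Per2 without rats 39, 43 and 44 in turn (0.0567 to 0.0948).

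In adipose tissue Per3 rose with x10 (1 of 6, 0 fell; 0.0503% of all genes). It was at 38.3, 39.4, 47.1 and 53.7 CPM in controls, 78.7, 80.0, 103 and 119 with x1 and 119, 122, 124 and 189.8 with x10. Both treated groups were above all controls, and x10 passed (log2 fold change 1.58 ± 0.20 (SE), adjusted p = 0.000368), though not with only the 2 groups in the fit (0.325). The highest x10 library, rat 37, held the brown fat marker Ucp1, and without it Per3 still rose (log2 fold change 1.28). With x1 edgeR called 0 of 6 (0.0216% of all genes), 4 had an unadjusted p under 0.05, and DESeq2 called 1, Per3 (log2 fold change 0.99 ± 0.20 (SE), adjusted p = 0.152, edgeR), which edgeR called too without the library of rat 37 (adjusted p = 0.00895). Of all 13906 genes tested with x1, 454 had an unadjusted p under 0.05. With x10 DESeq2 called Per2 as well (adjusted p = 0.0237). Ciart was at 0.407, 0.603, 0.847 and 0.95 CPM in controls, 1.41, 2.15, 2.49 and 3.67 with x1 and 1.77, 2.14, 2.43 and 5.21 with x10, again above all controls in both without passing (adjusted p = 0.983 and 0.345).

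**Figure D5:**
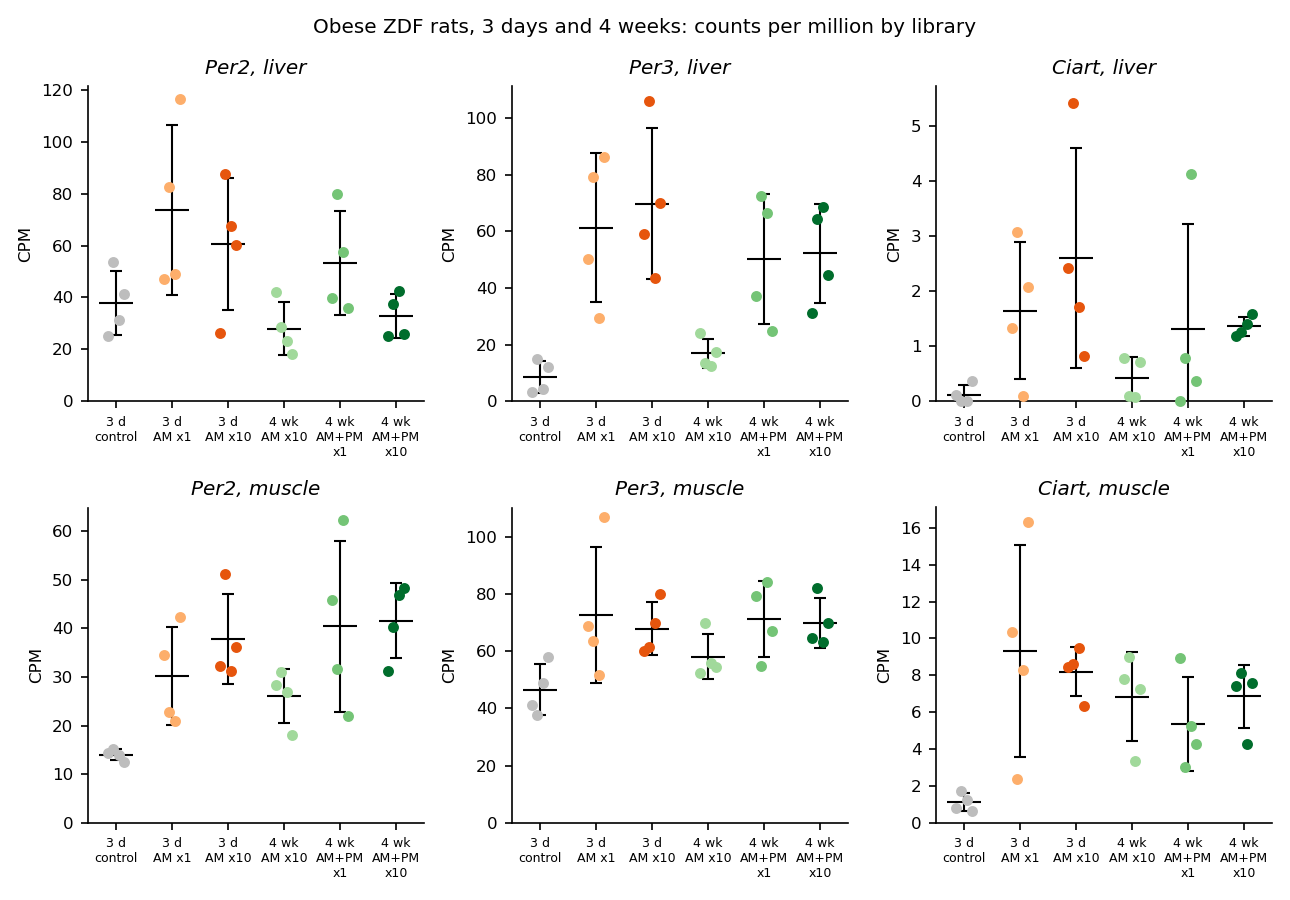
CPM of Per2, Per3 and Ciart in liver and muscle of obese ZDF rats after 3 days (control, AM only x1, AM only x10) and 4 weeks (AM only x10, AM and PM x1, AM and PM x10), 1 point per library. Per3 in liver and Ciart in muscle lie above all 3-day controls in both 3-day pFUS groups; the 4-week groups have no control of their own.

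At 4 weeks the schedules could be compared only with each other. Adding an afternoon session at x10 gave no call in liver, muscle or adipose tissue (edgeR, 0 of 6 in each, with 1.74%, 0% and 0% of all genes). Of the members 2, 1 and 1 had an unadjusted p under 0.05, and DESeq2 called 2, 0 and 0. In liver Per3 was at 12.6, 13.5, 17.5 and 24.0 CPM with AM only and 31.2, 44.6, 64.4 and 68.7 with AM and PM, without overlap (log2 fold change 1.64 ± 0.45 (SE), adjusted p = 0.0728). Cry2 was at 25.9, 30.5, 31.3 and 33.2 and 38.8, 39.6, 44.5 and 45.2 CPM, also apart (log2 fold change 0.50 ± 0.14 (SE), adjusted p = 0.0608), and these 2 were the ones DESeq2 called. Ciart was at 0.068, 0.089, 0.709 and 0.792 and 1.19, 1.26, 1.41 and 1.58 CPM (log2 fold change 1.68 ± 0.91 (SE), adjusted p = 0.358). Between AM and PM x10 and AM and PM x1, edgeR called 0 of 6 in each tissue (0.735% of all genes in liver, 0% in muscle and 0% in adipose tissue), 0, 0 and 1 had an unadjusted p under 0.05, and DESeq2 called 0. With x1 Per3 in liver was at 24.7, 37.0, 66.6 and 72.7 CPM, and the difference x10 minus x1 had a log2 fold change of 0.07 with a 95% interval from -0.79 to 0.92.

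In DIO-stz rats, fitted with a term for sex, edgeR called no member in any of 8 tissues. The share of all genes called was 0.0505% in adipose tissue, 0% in blood, 0% in brain, 0% in intestine, 0% in kidney, 0.784% in liver, 0% in muscle and 0.856% in pancreas. In that order 2, 2, 0, 1, 0, 2, 0 and 1 members had an unadjusted p under 0.05, and DESeq2 called 1 in adipose tissue, 1 in liver and 0 elsewhere. In adipose tissue Per1 was at 46.8, 51.2, 58.0 and 62.5 CPM in controls and 23.6, 27.2 and 29.6 in 3 pFUS males. The male controls were at 51.2 and 58.0 and the groups were apart (log2 fold change -0.996 ± 0.16 (SE), adjusted p = 0.158), and this was the member DESeq2 called there. In liver Cry2 was at 40.8, 46.6, 48.7 and 49.98 CPM in controls and 19.5, 23.7, 28.8, 31.5 and 33.4 with pFUS, again apart (log2 fold change -0.69 ± 0.18 (SE), adjusted p = 0.181), and DESeq2 called it.

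Per3 in DIO-stz liver was at 2.497, 11.7, 14.4 and 16.1 CPM in controls and 0.394, 3.68, 8.91, 11.4 and 13.9 with pFUS, which overlap (log2 fold change -0.20 ± 0.77 (SE), adjusted p = 1). In pancreas Per2 was at 0.659, 3.01, 4.02 and 5.64 and 6.07, 6.71, 8.33 and 12.2 CPM, without overlap (log2 fold change 0.78 ± 0.26 (SE), adjusted p = 0.288). Averaged over tissues per rat, limma called 0 of 5 (0.0554% of all genes), with 1, Cry1, at an unadjusted p under 0.05 (log2 fold change 0.33 ± 0.09 (SE), adjusted p = 0.646). The 2 DIO diet resistant females had no control. Their livers held Per3 at 3.75 and 3.92 and Per1 at 6.44 and 16.8 CPM, and their muscles Ciart at 0.16 and 0.248 CPM.

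Over the 31 fits of pFUS against control, where 0.212% of all gene tests passed, Per3 was called in 6 of 30, Ciart in 4 of 22, Per2 in 3 of 31, Cry2 in 1 of 31, and Per1 and Cry1 in 0 of 31 (edgeR, or limma for the rat means). Per1 had an unadjusted p under 0.05 in 12 and Cry1 in 11, and DESeq2 called Per1 in 5 and Cry1 in 0. The shares of all gene tests at that unadjusted p and in DESeq2 are not given here. In the 6 fits of obese against lean controls, where 10.9% passed, Per1, Per2, Per3 and Ciart were called in 2 each and Cry2 in 1. All of these calls were in liver or muscle. Of all genes there, 931 were higher and 701 lower of 12585 in liver, and 3362 higher and 3160 lower of 12577 in muscle. The difference of the pFUS effects, with 0.0591% passing in 6 fits, was called in 1 each for Per1, Per3 and Ciart. These calls were in liver, where of all 12585 genes 16 had a positive and 29 a negative difference called. Many of these tests share groups and rats. Over the 14 comparisons of pFUS with control in obese ZDF rats, the log2 fold change was positive in 12 of 12 for Ciart, 13 of 14 for Per2 and for Per3, and 12 of 14 for Per1 and for Cry2, but in 6 of 14 for Cry1. All pFUS libraries lay above all controls in 9 of 12 for Ciart, 8 of 14 for Per3, 6 for Per2, 4 for Cry2, and 1 for Per1 and for Cry1. All lay below in 3 of 14 for Cry1, and in none for the others. Of all gene tests in these 14 comparisons, 3.05% had every pFUS library above every control, from 0.027% in 7-week brain to 10.0% in 7-week blood, and 2.15% had every one below. The x1 and x10 groups share their controls. In obese rats at 7 weeks the median log2 fold change of the members tested was 1.48 in liver, 1.27 in pancreas, 1.07 in muscle, 0.74 in kidney and 0.71 in intestine, where the medians of all genes were -0.00, -0.00, -0.01, -0.04 and -0.06. In adipose tissue, blood and brain it was -0.12, 0.19 and 0.08.

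Other clock genes were counted from 8 lists. Over the 8 tissues with 7-week pFUS in obese rats, 0.0208% of all gene tests rose and 0.0585% fell. Without control rats 2 and 3, 2 of all 13590 genes tested in kidney rose and 27 fell. In liver 3 of 12766 rose and 15 fell, in pancreas 4 of 9891 rose and 0 fell, and 0 were called in the other tissues. Of the activators, 0 rose and 6 fell in 26 tests with 7-week pFUS in obese rats over tissues. Arntl fell in liver (log2 fold change -2.58 ± 0.39, adjusted p = 0.0029), kidney (-2.32 ± 0.24, adjusted p = 0.00322), muscle (-1.94 ± 0.34, adjusted p = 0.0272) and pancreas (-1.95 ± 0.29, adjusted p = 0.0148), and Npas2 in kidney (-1.72 ± 0.20, adjusted p = 0.00439). Without control rats 2 and 3, 4 of the 26 fell: Arntl passed in liver (adjusted p = 0.0357) and kidney (0.00808) and Npas2 in kidney (0.00808), but Arntl did not pass in muscle (0.297) or pancreas (0.171). The 4 activators had a median log2 fold change of -1.40 in liver, and the 3 tested had -1.72 in kidney, -1.76 in muscle and -1.28 in pancreas. Arntl was at 18.1, 21.3, 27.5, 32.7 and 33.4 CPM in control and 2.13, 4.67, 5.47, 5.51 and 6.02 in pFUS livers. In lean liver Arntl rose (2.62 ± 0.43, adjusted p = 0.0154), from 0.44, 0.74, 0.94, 1.06 and 1.46 to 1.91, 1.960, 5.69, 6.94 and 7.36 CPM, and the difference between both effects was -5.20 ± 0.58, adjusted p = 7.86e-05, or adjusted p = 0.0011 without obese control rats 2 and 3. Of the output bZIP factors, which bind D-boxes, 2 rose and 1 fell in 30 tests in obese rats, and Dbp rose in liver (2.93 ± 0.43, adjusted p = 0.0029; without rats 2 and 3 adjusted p = 0.0357, with 2 rising and 2 falling in 30). Of the nuclear receptors and DEC factors, which act on E-boxes and ROR elements, 2 rose and 0 fell in 43, Bhlhe40 (1.69 ± 0.22, adjusted p = 0.00328) and Nr1d2 (1.27 ± 0.16, adjusted p = 0.00182), both in pancreas and both also without rats 2 and 3 (adjusted p = 0.0129 and 0.0335).

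Of the PER and CRY kinases and ubiquitin ligases, which time the decay of the proteins, 0 rose and 0 fell in 84 tests in edgeR, 13 had an unadjusted p under 0.05 and DESeq2 called 3. Of the partners 1 rose and 0 fell in 53, Cipc in intestine (1.40 ± 0.24, adjusted p = 0.0416), a repressor that binds CLOCK, and without rats 2 and 3 it did not pass (adjusted p = 0.154), leaving 0 in 53 with 3 at an unadjusted p under 0.05. Glucocorticoid receptor targets, of which the list holds 11, rose in 2 of 84 and fell in 0, Sgk1 in intestine (2.497 ± 0.38, adjusted p = 0.0282) and Dusp1 in muscle (0.90 ± 0.15, adjusted p = 0.0195). Neither passed without rats 2 and 3 (adjusted p = 0.154 and 0.188), where 0 of 84 were called and 22 had an unadjusted p under 0.05. Of the CREB and immediate early genes 0 rose and 2 fell in 74, both of them Atf3, a stress-induced factor, in liver (-2.83 ± 0.52, adjusted p = 0.0155) and kidney (-3.81 ± 0.59, adjusted p = 0.0308). Without rats 2 and 3 Atf3 passed in kidney (adjusted p = 0.00836) and not in liver (0.102), and 6 of 76 fell. Of all genes without these rats, 27 of 13590 fell in kidney, 15 of 12766 in liver and 0 in the other tissues. Of the heat shock and cold-inducible genes 0 rose and 1 fell in 70, which was liver Hspa1b (-7.69 ± 1.61, adjusted p = 0.0418), high in control rats 2 and 3 alone and not called without them (adjusted p = 1). After 3 days of x10, Dbp rose and Arntl fell in liver (3.13 ± 0.53, adjusted p = 0.00365; -3.25 ± 0.56, adjusted p = 0.00411) and adipose tissue (2.55 ± 0.32, adjusted p = 0.000336; -2.07 ± 0.27, adjusted p = 0.000368). In DIO-stz rats Bhlhe40 rose in liver (2.66 ± 0.29, adjusted p = 0.00591), with Klf15 lower (-1.06 ± 0.17, adjusted p = 0.0229).

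Across all libraries of the series, with log2(CPM + 1) centred on each tissue's mean, the genes most like each repressor were found among 11861 candidates by Pearson's r; libraries share rats and depth, and these are descriptions. For Ciart they were Dbp (r = 0.814), Tef (0.703) and Usp2 (0.627), and for Per3 Nr1d2 (0.798), Dbp (0.702) and Rev1 (0.665). Per2 was nearest to Nr1d2 (0.68), Wee1 (0.672) and Rev1 (0.634), and Per1 to Tob2 (0.689), Tsc22d3 (0.567) and Zfp592 (0.541). Cry2 was nearest to Ldb1 (0.729), Osbpl2 (0.719) and Gne (0.711), and Cry1 to Ubl3 (0.487), Osbp (0.472) and Afg3l2 (0.467). Between members r was 0.802 for Per2 and Per3, 0.662 for Per1 and Per2 and 0.665 for Per3 and Ciart, and for Cry1 with the other 5 it ran from 0.082 to 0.286. With Arntl it was -0.77 for Ciart, -0.657 for Per3, -0.537 for Per2, -0.432 for Per1, -0.13 for Cry2 and 0.08 for Cry1.

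In the deposited isoform counts Per1, Per2, Cry1 and Cry2 have 1 transcript each. Ciart has 2, of which the main one held 98.9% of its counts. Per3 has 8, of which ENSRNOT00000024932 held 87.3% over all libraries, from 73.3% in pancreas to 95.5% in brain.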

How the data were processed

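Each library is 1 tissue of 1 rat. The deposited values are RSEM expected counts per gene and per isoform, which the authors rounded to whole numbers and did not normalize. STAR 2.5.3a, RSEM and the genome build Rnor_6.0 are named, per the submitters' processing notes; the RSEM version and the annotation release are not given in the sources used here. Pancreas and adipose tissue had stranded libraries of total RNA and the others of mRNA, per the labels' protocols. No libraries were identical. The p-values measure the spread between rats, and tissues of a rat are not independent.

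Each tissue was fitted with edgeR 4.0.16 (R 4.3.3): TMM factors, filterByExpr at a minimum count of 10, robust quasi-likelihood F tests, and Benjamini-Hochberg adjustment over all genes tested, with a threshold of 0.05. Groups of a cohort shared a fit, and DIO-stz fits held a term for sex. The SE was taken as the size of the log2 fold change divided by the root of F. Rat means of log2 CPM (prior count 2) were tested with limma 3.58.1. Scripts were tested on simulated counts. "Rose" and "fell" mean past the threshold. Shares of all genes called are those of edgeR or limma at that threshold, and none is given for DESeq2. The 6 genes are always named; of the other lists, at most 4 genes a comparison that passed, the largest first, may be named, and the 3 most similar genes for each member. Genes and lists were chosen with earlier results of these data known. Of the genes listed, Dec1, Chrono and Hspa1a were not found in the table by these symbols. Peptide genes of the brain and Hspa1b by rat were looked at after their values were seen.

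Tried in turn were RLE factors, DESeq2 1.42.0, fits of only the 2 groups compared, no low-count filter, no sex term, males only, a prior count of 0.5, all libraries in 1 limma fit with or without the rat number as a block, and each library or rat left out. Fits without the 26 libraries in doubt, without obese control rats 2 and 3, and without rats 5, 8 and 9 were added after seeing the data. In adipose tissue a library was in doubt by another tissue's marker: Ckm over 1000 CPM, or Umod or Ucp1 over 100. In intestine the markers were Fabp6 over 100 CPM or Prss1 over 10. In the other tissues no marker was used, and the rule was a correlation with its group more than 0.05 under the group's. Python 3.11.15, numpy 2.4.6, pandas 2.3.3 and matplotlib 3.10.9 were used.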

Additional observations from a re-analysis of the deposited data

Results flagged for a closer look

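Within groups of 4 to 10 rats, 360 sets of a gene, tissue and group were checked for a rat whose gap to the nearest other, as a share of the group's range, was above Dixon's 95% critical value, and 30 (8.33%) had one. By chance about 1 in 20 groups of normally distributed values would, and CPM values need not be so distributed, so no excess is read from this share. Per1 stood above its group at a CPM of 38.1 in intestine of rat 11 among the DIO-stz pFUS rats (the others 12.6 to 17.5), 99.8 in kidney of rat 11 among the DIO-stz pFUS rats (the others 16.0 to 29.3) and 2.95 in blood of rat 5 among the obese controls at 7 weeks (the others 1.02 to 1.57). Also above were Per1 at 18.5 in liver of rat 5 among the obese controls at 7 weeks (the others 5.62 to 9.26) and 37.5 in liver of rat 23 among the 4-week AM and PM x1 rats (the others 23.3 to 25.1). Per1 stood below its group at a CPM of 21.7 in adipose tissue of rat 31 among the 4-week AM and PM x10 rats (the others 39.1 to 42.1). Per2 stood above its group at a CPM of 114 in adipose tissue of rat 16 among the lean pFUS rats (the others 22.1 to 27.8). Per3 stood above its group at a CPM of 5.14 in blood of rat 6 among the DIO-stz controls (the others 0.818 to 1.51), 95.7 in brain of rat 11 among the DIO-stz pFUS rats (the others 48.3 to 58.0) and 19.7 in muscle of rat 7 among the DIO-stz pFUS rats (the others 13.5 to 13.7). Also above were Per3 at 136 in adipose tissue of rat 16 among the lean pFUS rats (the others 66.8 to 77.4), 189.8 in adipose tissue of rat 37 among the 3-day x10 rats (the others 119 to 124) and 1.11 in blood of rat 7 among the obese pFUS rats at 7 weeks (the others 0.37 to 0.564). Also above were Per3 at 60.1 in liver of rat 10 among the obese pFUS rats at 7 weeks (the others 22.6 to 31.0). Per3 stood below its group at a CPM of 9.22 in kidney of rat 3 among the DIO-stz controls (the others 15.7 to 16.7). Cry1 stood above its group at a CPM of 7.64 in pancreas of rat 7 among the DIO-stz pFUS rats (the others 2.98 to 3.09), 29.0 in intestine of rat 15 among the lean controls (the others 19.1 to 21.8) and 10.9 in liver of rat 20 among the lean pFUS rats (the others 3.67 to 5.78). Also above were Cry1 at 18.5 in muscle of rat 41 among the 3-day controls (the others 15.9 to 16.3), 7.04 in adipose tissue of rat 21 among the 4-week AM and PM x1 rats (the others 3.94 to 4.41) and 7.82 in adipose tissue of rat 32 among the 4-week AM and PM x10 rats (the others 6.13 to 6.38). Also above were Cry1 at 14.1 in muscle of rat 26 among the 4-week AM only x10 rats (the others 12.3 to 12.4). Cry1 stood below its group at a CPM of 20.6 in intestine of rat 7 among the DIO-stz pFUS rats (the others 26.5 to 27.6). Cry2 stood above its group at a CPM of 21.0 in blood of rat 6 among the DIO-stz controls (the others 6.18 to 7.87), 39.6 in intestine of rat 4 among the DIO-stz controls (the others 15.2 to 15.9) and 44.5 in intestine of rat 9 among the DIO-stz pFUS rats (the others 15.3 to 19.1). Also above were Cry2 at 67.1 in adipose tissue of rat 16 among the lean pFUS rats (the others 28.2 to 32.1) and 215 in brain of rat 9 among the obese pFUS rats at 7 weeks (the others 165 to 175). Ciart stood above its group at a CPM of 0.09 in pancreas of rat 2 among the obese controls at 7 weeks (the others 0 to 0). Ciart stood below its group at a CPM of 0 in adipose tissue of rat 24 among the 4-week AM and PM x1 rats (the others 1.70 to 1.85).

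Lean pFUS rat 16 was the highest in adipose tissue for Per2, Per3 and Cry2, and its library held the kidney marker Umod with Adipoq at 775 CPM. The other 3 held the skeletal muscle marker Ckm at 17282 to 18785 CPM and Adipoq at 0.16 to 7.57. The high Ciart value in pancreas is a single read. DIO-stz pFUS rat 11 was the highest for Per1 in kidney and intestine and for Per3 in brain, and its kidney library was among those apart from their group. The highest Per1 of the obese control livers was rat 5, and without it Per1 passed the test in obese liver.

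Obese and lean rats differed in the liver. The difference of the pFUS effects, tested as an interaction, was 3.20 for Per1, 3.86 for Per3 and 5.09 for Ciart on the log2 scale. For Per1 every obese pFUS liver was above every obese control (log2 fold change 1.82) and every lean pFUS liver below every lean control (-1.38). Neither effect passed on its own in edgeR, although DESeq2 called both (adjusted p = 0.00619 and 0.0325), and without lean control rat 15 edgeR called the lean effect (0.0405).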

How the results depend on the processing

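Under the alternatives no called fold change of a member reversed in sign. Counts of members called are given here where they moved by over 1.5 times. DESeq2 called 2 in obese intestine and 2 in obese kidney, 1 in lean intestine, 3 in lean liver, 1 in adipose tissue of obese against lean controls, 1 in 3-day x1 adipose tissue, 2 in 4-week liver (AM and PM against AM only), and 1 each in DIO-stz adipose tissue and liver, where edgeR called 0; it called 2 in x1 muscle and 2 in x10 adipose tissue, where edgeR called 1. Without a filter on low counts 1 was called in obese liver. With only the 2 groups compared, 0 were called in obese muscle, x1 liver, x1 muscle and x10 adipose tissue and 1 in x10 liver. Without libraries in doubt 3 were called in obese adipose tissue, 4 in lean liver, 4 in adipose tissue of obese against lean controls and 1 in x1 adipose tissue. Without obese control rats 2 and 3, 0 were called in obese liver, obese muscle and the obese rat means. With 1 library or rat left out the counts ran from 0 to 3 in obese liver, 1 to 3 in obese muscle, 0 to 2 in lean intestine, 0 to 4 in lean liver, 1 to 2 in x1 liver, 0 to 1 in x1 muscle, 0 to 2 in x10 muscle and 1 to 2 in obese rat means. For the 46 counts by tissue, 35 of 46 kept to within 1.5 times under DESeq2, 46 under RLE factors and 45 without the filter. The shares of all genes called under these alternatives are not given with these counts, and the cause of these changes was not tested.

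In 1 limma fit over all tissue libraries, in place of rat means, the rat number as a replicate block gave 4 calls in obese rats (Per1, Per2, Per3 and Cry2), as did no replicate block. On rat means Per3 alone passed, and Per1, Per2 and Cry2 had adjusted p of 0.229, 0.0732 and 0.205. Same-numbered tissues of a rat deviated together little: the consensus correlation was 0.0022 in obese, -0.0144 in lean and -0.0199 in DIO-stz rats. Between the treated and control groups the labels share no rat number. The depth limits Ciart most, with 0 to 12 reads in obese control livers.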
